A study of Mus musculus with 6 samples.

Results

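The 10 genes described here are known from pericytes and vascular smooth muscle, and were measured by bulk RNA-seq of mouse tumours: Pdgfrb, Rgs5, Acta2, Tagln, Myh11, Cspg4, Mcam, Notch3, Des and Cnn1. They were chosen by symbol, and all 10 were matched among the 57186 genes of the count table. The tumours grew from MB49 cells, a bladder carcinoma line from a male mouse, placed subcutaneously in C57Bl/6J hosts. In the Y-KO group (3 libraries) CRISPR had been used to remove the Y chromosome of the injected cells, and in the Y-Scr group (3 libraries) the cells carried the scrambled CRISPR control. In both groups tumours were taken at 500 mm3 and sorted for CD45-negative cells, a gate meant to keep tumour cells and host cells without the leukocyte antigen CD45. The labels give no age or sex of the mice, and do not say whether a clone or a pool of edited cells was injected or whether replicates are separate animals. All 6 carry the same batch label. The p-values therefore set the difference between groups against variation between libraries only, and that variation may be technical.

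Pericytes and vascular smooth muscle cells, together called mural cells, wrap the endothelial tube of blood vessels. Endothelial cells attract them with PDGF-B, which binds the receptor encoded by Pdgfrb, and Notch3 signalling at the contact with endothelium holds them in the mural state. Contractile mural cells switch on actin, myosin and calponin genes under serum response factor and its partner myocardin. In tumours, mural coverage of vessels is often thin and uneven. Several of these genes are not private to mural cells: Acta2 and Tagln mark activated fibroblasts, Des is a filament gene of all muscle, and Mcam and Cspg4 are also found on endothelial, neural crest and tumour cells.

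Serum response factor binds the CArG box, a motif of many smooth muscle promoters. Promoter sequences from RefSeq (GRCm38.p6, from 250 bases before to 50 after the annotated start) were used for 7 members: Acta2, Cnn1, Cspg4, Des, Mcam, Notch3 and Rgs5. The promoters of Acta2, the member with the highest level, and of Des, the member whose groups stood furthest apart, are shown 5′ to 3′. Capitals mark CArG boxes with 1 mismatch among the central letters (chr19:34255324-34255623, minus strand, for Acta2, and chr1:75360042-75360341, plus strand, for Des).
Acta2: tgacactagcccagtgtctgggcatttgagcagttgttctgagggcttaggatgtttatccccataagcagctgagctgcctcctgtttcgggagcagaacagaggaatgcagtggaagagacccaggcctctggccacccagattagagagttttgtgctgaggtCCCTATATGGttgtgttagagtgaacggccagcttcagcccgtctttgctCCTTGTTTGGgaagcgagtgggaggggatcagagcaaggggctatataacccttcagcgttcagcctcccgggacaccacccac
Des: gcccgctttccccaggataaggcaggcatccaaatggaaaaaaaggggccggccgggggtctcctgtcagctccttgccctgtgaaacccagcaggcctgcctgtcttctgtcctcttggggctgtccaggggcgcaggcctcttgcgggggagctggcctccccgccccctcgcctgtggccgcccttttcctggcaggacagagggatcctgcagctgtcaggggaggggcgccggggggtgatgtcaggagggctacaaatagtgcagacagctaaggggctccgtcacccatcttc
The Acta2 window held 2 such near matches, CCCTATATGG beginning 84 bases and CCTTGTTTGG beginning 34 bases before the start, and the Des window held none. No perfect CArG box was found in any of the 7 windows, on either strand. The promoters of Tagln, Myh11 and Pdgfrb were not examined, so the absence does not cover all members. Of 32851 promoter windows of the same length, 1.63% held a perfect CArG box and 8.50% a box with 1 central mismatch. A match here is a description of letters only, and the build differs from that of the counts (GRCm39).

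Total counts ran from 42040955 to 52951031 per library. The label check held: the Y-linked gene Kdm5d had a mean of 3.33 in Y-KO libraries and of 44.0 in Y-Scr libraries, in CPM (reads scaled to a common library size, here adjusted by TMM). The sort label was not borne out: Ptprc, which encodes CD45, was at 293, 298 and 134 CPM in Y-KO replicates 1 to 3 and at 521, 577 and 601 CPM in Y-Scr, so leukocyte RNA was present in all 6 libraries and at different levels. Libraries of a group were not equally alike. Over 9864 genes with a mean of at least 10 CPM, the SD of the log2 CPM difference was 0.184 between Y-KO replicates 1 and 2, whereas Y-KO replicate 3 differed from them by 0.474 and 0.478. It was 0.133 between Y-Scr replicates 2 and 3, and 0.186 and 0.201 between these and Y-Scr replicate 1. Several, but not all, results that rest on Y-KO replicate 3 are therefore given with and without it. An alternative sums each of the 2 closest pairs into 1 sample.

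The first result is how little of this RNA was present. The 10 genes together took 1038 reads in Y-KO, out of 143878638, and 2232 reads in Y-Scr, out of 145607525. Among the 60 gene and library values, 12 were 0. Of the 48 values above 0, 40 were even numbers. Reads rather than pairs were counted, so the number of RNA fragments may be smaller than the count. On a scale of CPM per kilobase of exon, averaged over the 6 libraries, 9 of the 10 members lay under 1, against a median of 3.64 over the 17837 genes tested.

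Per exon length the order of levels was Acta2 (1.60 CPM per kb), Mcam (0.709), Des (0.545), Rgs5 (0.183), Notch3 (0.179), Pdgfrb (0.115), Tagln (0.0370), Cspg4 (0.0144), Myh11 (0.0138) and Cnn1 (0). Only Acta2 was set apart from its neighbour in this order, with a lowest library value of 1.03 CPM per kb against a highest of 0.949 for Mcam. For the other neighbours the ranges over the 6 libraries overlapped or met at 0. Acta2 exceeded 36.4% of the tested genes per length, Mcam 25.5% and Des 21.9%, whereas Tagln exceeded 0.790% and Myh11 and Cspg4 0.0561% each.

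**Figure D1:**
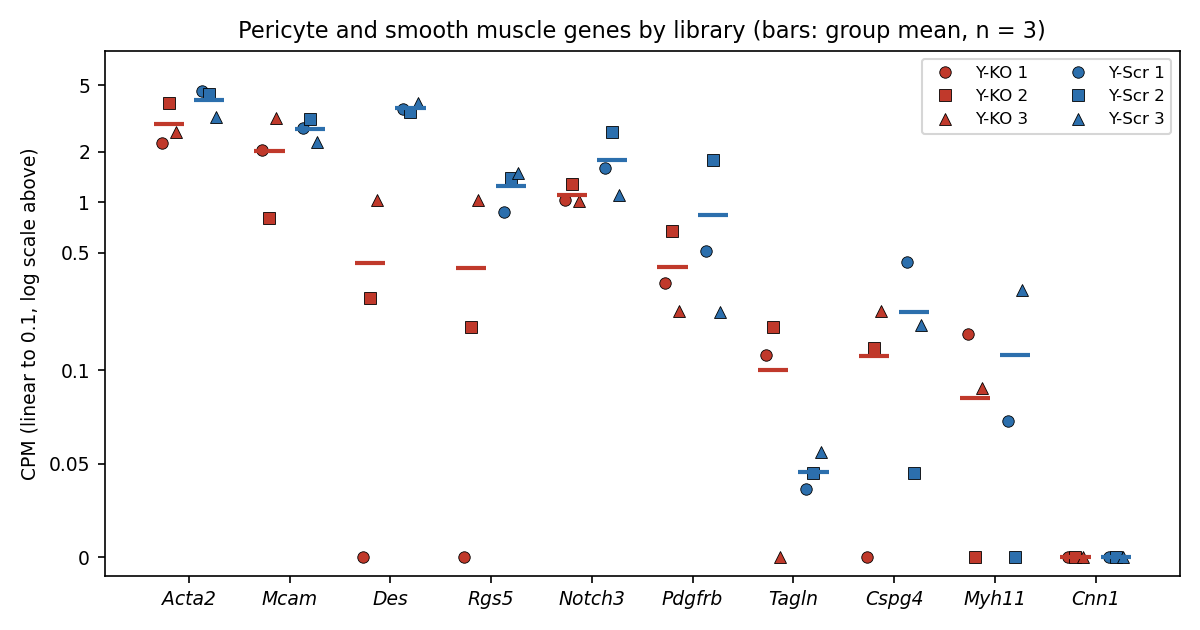
CPM of each member in each library (y axis, linear to 0.1 CPM and log above), with Y-KO in red, Y-Scr in blue, symbols for replicates and bars for group means of 3 libraries. Only for Des do the 3 Y-KO values (0 to 1.04 CPM) all lie below the 3 Y-Scr values (3.46 to 3.89 CPM); 37.7% of all tested genes showed no overlap, 20.3% lower and 17.5% higher in Y-KO.

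The defining genes of contractile smooth muscle were at or near 0 in both groups, so no mural cell population is named from these data. Cnn1, which encodes calponin, an actin-binding protein that restrains contraction (chromosome 9, 22010512 to 22020926, GRCm39), had 0 reads in all 6 libraries. A count of 0 allows up to 3 reads over a group, which is 0.0219 CPM for the Y-KO group and 0.0196 CPM for the Y-Scr group, and covers counting error only. That limit takes each read as a separate fragment. Myh11, the smooth muscle myosin heavy chain (chromosome 16, 14012399 to 14109236), had 8, 0 and 4 reads in Y-KO replicates 1 to 3 and 4, 0 and 16 in Y-Scr. Tagln, encoding the actin-bundling protein SM22 (chromosome 9, 45840917 to 45847356), had 6, 8 and 0 reads in Y-KO and 2, 2 and 3 in Y-Scr. Both groups included libraries with almost no reads of these genes, and their ranges overlapped. The Tagln counts cover little of the gene, because 67.9% of its 1988 exon bases are shared with exons of Gm48529 and Pcsk7, and reads that fit 2 genes were left out of the table. Its level is therefore uncertain in both groups.

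Cspg4, encoding the NG2 proteoglycan of pericytes (chromosome 9, 56772317 to 56807154), had 0, 6 and 10 reads in Y-KO replicates 1 to 3 and 24, 2 and 10 in Y-Scr. The groups overlapped, and the Y-Scr libraries themselves ran from 0.0449 to 0.439 CPM. Cnn1, Myh11, Tagln and Cspg4 fell below the filter on low counts and were not tested. When the filter was dropped, the edgeR adjusted p was 0.897 for Myh11, 0.797 for Tagln and 0.754 for Cspg4. At this depth no difference was detectable in these genes.

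Of the 10 members, 6 passed the filter. None of the 6 passed the test for a difference between Y-KO and Y-Scr (edgeR, adjusted p under 0.05 over all genes tested), and 1, Des, had an unadjusted p under 0.05. DESeq2 also called none, and limma-voom called 1 lower, again Des. Over all tested genes 8.27% were called lower and 7.82% higher in Y-KO, 16.1% in all. The fitted log2 fold change was below 0 for all 6 of the tested members, and for 52.5% of all tested genes. The median was -0.85 for these members against -0.03 over all tested genes. That median describes only the genes with enough reads to be tested, and is no support for a shift of the whole group. Des and Rgs5 were tested only because of their Y-Scr reads. When libraries were scaled by total reads only, the split of all calls moved from 1395 higher and 1476 lower to 730 higher and 2255 lower, and the median of all genes from -0.03 to -0.17. Bulk RNA cannot tell fewer cells of a type from less RNA per cell.

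**Figure D2:**
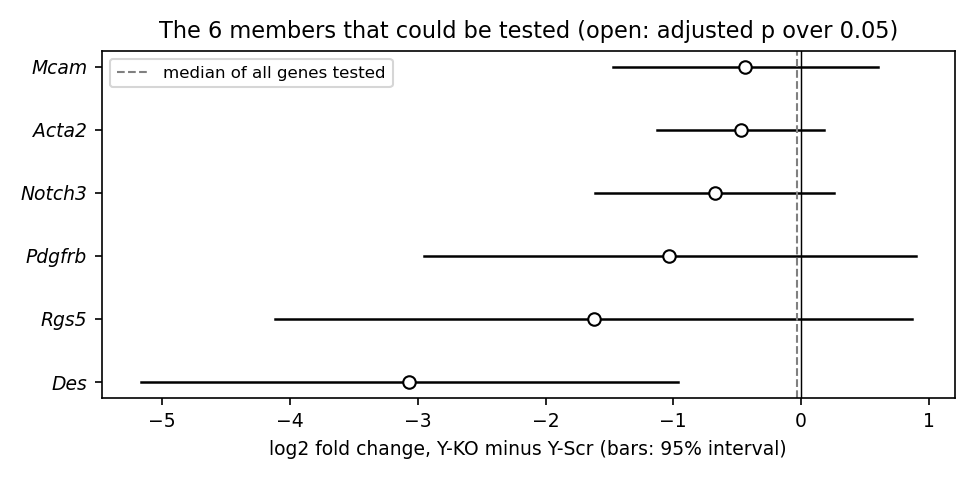
Log2 fold change of the 6 tested members (x axis, Y-KO minus Y-Scr) with 95% intervals from the edgeR fit, and the median of all tested genes as a dashed line. The interval of Des runs from -5.17 to -0.96, and those of the other 5 include 0.

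Des, encoding desmin, the intermediate filament of smooth, cardiac and skeletal muscle (chromosome 1, 75336973 to 75345223), was the member whose groups stood furthest apart. It was at 0, 0.271 and 1.04 CPM in Y-KO replicates 1 to 3 and at 3.62, 3.46 and 3.89 CPM in Y-Scr. In reads, these were 0, 12 and 46 against 198, 154 and 208. All Y-KO libraries lay below all Y-Scr libraries, and the spread was wide in Y-KO (0.438 ± 0.542 CPM, SD, n = 3) and narrow in Y-Scr (3.65 ± 0.218 CPM). Of all tested genes, 20.3% were separated in this direction. With 0 reads in Y-KO replicate 1, Des would not have passed the filter on low counts on its Y-KO libraries alone. Its separation is therefore only a description. The fitted difference was 8.37-fold (log2 fold change -3.07, SE 0.92), and it stayed outside the threshold, with an edgeR adjusted p of 0.0561.

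The call for Des turned on the choice of fit. It was past the threshold with limma-voom (adjusted p = 0.0234), with library size alone as the scaling (edgeR adjusted p = 0.0483), without the filter on low counts (0.000227) and with counts halved and rounded up (0.0287). Dropping Y-KO replicate 3 keeps the pair of Y-KO libraries most alike, and the log2 fold change was then -4.77 and the edgeR adjusted p 5.5e-05. Without Y-KO replicate 1 it was -2.47 with an adjusted p of 0.0299. Leaving out any single Y-Scr library or Y-KO replicate 2 gave an edgeR adjusted p from 0.135 to 0.179. With each close pair summed, the log2 fold change was -2.72 and the edgeR adjusted p 0.169, and DESeq2 gave 0.155. The sign was negative in all 14 alternatives.

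**Figure D3:**
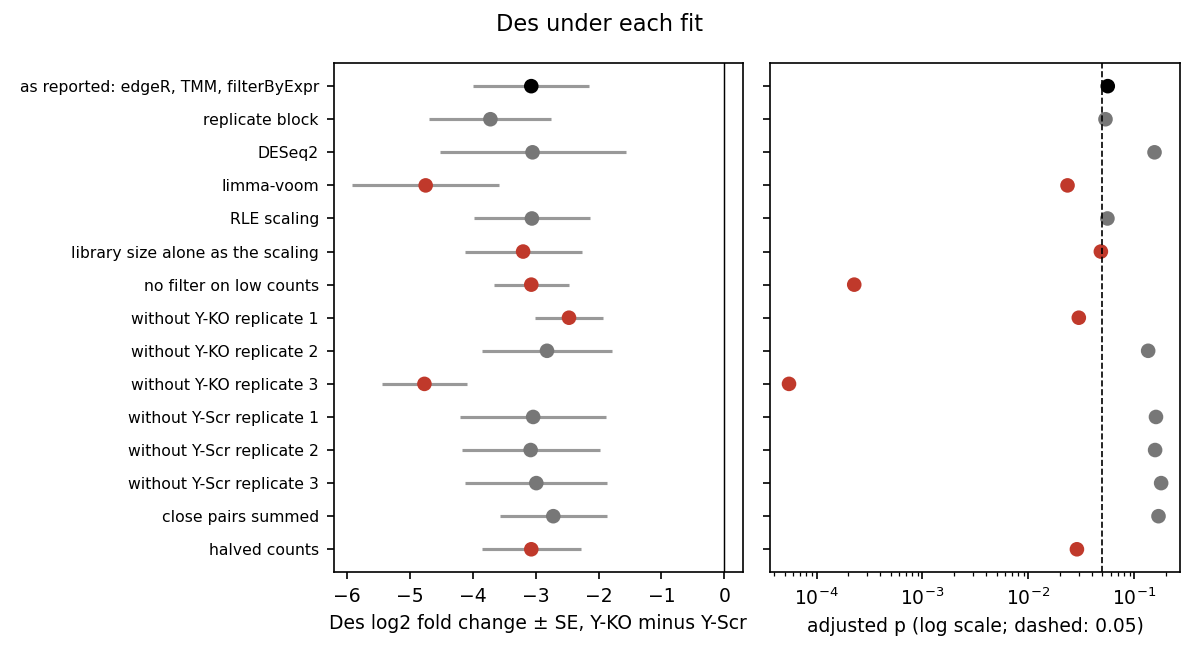
Des under each fit: log2 fold change with SE (left, Y-KO minus Y-Scr) and adjusted p on a log axis (right, dashed line at 0.05), with the reported fit in black, fits past the threshold in red and others in grey. All estimates lie between -4.77 and -2.47, while the adjusted p runs from 5.5e-05 to 0.179.

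Desmin is a filament of skeletal muscle too, and skeletal muscle markers were read beside it. Of 25 such markers 11 could be tested, 3 fell and none rose. These were the giant sarcomere gene Ttn, 3.31-fold lower (edgeR adjusted p = 0.0295), the thin-filament gene Neb, 3.30-fold lower (edgeR adjusted p = 0.0146), and the calcium release channel gene Ryr1, 2.29-fold lower (edgeR adjusted p = 0.00534). The count of 3 was 4 without Y-KO replicate 3, 1 without Y-Scr replicate 2 or 3, and 0 with close pairs summed. The edgeR call of Neb was lost without Y-Scr replicate 2 or 3, and that of Ttn without Y-KO replicate 1 or any 1 Y-Scr library. The summed level of the 25 markers was 17.9, 19.7 and 16.5 CPM in Y-KO and 35.5, 28.5 and 30.1 CPM in Y-Scr, with no overlap. Without Ttn, Neb and Ryr1, the other 22 markers summed to 8.38, 12.5 and 8.6 CPM in Y-KO and 11.5, 9.34 and 9.28 CPM in Y-Scr, which overlapped. The myogenic factor genes Myod1, Myog and Myf5 had no reads. Their part in the Des values was not tested.

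Rgs5, encoding a regulator of G protein signalling that is abundant in pericytes (chromosome 1, 169483070 to 169523382), was at 0, 0.181 and 1.04 CPM in Y-KO replicates 1 to 3 and at 0.877, 1.39 and 1.5 CPM in Y-Scr. Y-KO replicate 3 lay inside the Y-Scr range, and the other 2 Y-KO libraries lay below it. Like Des, Rgs5 would not have passed the filter on low counts on its Y-KO libraries alone. The log2 fold change was -1.62 (SE 1.09, edgeR adjusted p = 0.366). A fit that dropped Y-KO replicate 3, and so rested on the pair of Y-KO libraries most alike, gave -3.79 with an edgeR adjusted p of 0.00628. With close pairs summed it was -1.10 (edgeR adjusted p = 0.654).

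Pdgfrb, the receptor for PDGF-B on mural cells and fibroblasts (chromosome 18, 61178222 to 61218133), was at 0.330, 0.677 and 0.227 CPM in Y-KO and at 0.512, 1.80 and 0.224 CPM in Y-Scr. The lowest value of each group was nearly the same, and 1 high Y-Scr library set the group mean apart. The log2 fold change was -1.03 (SE 0.84, edgeR adjusted p = 0.465), and without Y-Scr replicate 2 it turned to 0.17 (SE 0.93). Notch3, the Notch receptor of mural cells (chromosome 17, 32339794 to 32385826), was at 1.03, 1.29 and 1.02 CPM in Y-KO and at 1.61, 2.63 and 1.10 CPM in Y-Scr. Y-Scr replicate 3 lay among the Y-KO values. Its log2 fold change was -0.67 (SE 0.41, edgeR adjusted p = 0.314), and -0.27 without Y-Scr replicate 2.

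Acta2, encoding smooth muscle alpha-actin (chromosome 19, 34218490 to 34232990), whose promoter is printed above, was at 2.27, 3.93 and 2.63 CPM in Y-KO replicates 1 to 3 and at 4.59, 4.44 and 3.22 CPM in Y-Scr. Y-KO replicate 2 lay above Y-Scr replicate 3, so the groups overlapped. The difference was 1.39-fold (log2 fold change -0.47, SE 0.29, 95% interval -1.13 to 0.18, edgeR adjusted p = 0.313). Mcam, encoding the adhesion molecule CD146 (chromosome 9, 44045766 to 44054024), was at 2.06, 0.812 and 3.18 CPM in Y-KO and at 2.78, 3.12 and 2.30 CPM in Y-Scr. Both the lowest and the highest library belonged to Y-KO, the highest being Y-KO replicate 3. Over the 14 alternatives the log2 fold change of Mcam ran from -0.92 to -0.06, and none called it. In the reported fit it was -0.44 (SE 0.45, 95% interval -1.47 to 0.60, edgeR adjusted p = 0.575). For both genes the intervals leave room for differences in either direction.

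Added over the 10 members, the level was 5.98, 7.47 and 9.47 CPM in Y-KO replicates 1 to 3 and 14.5, 16.9 and 12.8 CPM in Y-Scr. The groups of sums did not overlap, and 20.3% of all tested genes were singly separated in this direction. Most of each sum came from Acta2, Mcam, Des and Notch3, though Des added 0 in Y-KO replicate 1. Des also had the largest difference in mean CPM (0.438 in Y-KO against 3.65 in Y-Scr), so the separation of the sums is not a trait of all members. A further 30 mural cell genes had a similar median, 0.130 CPM per kb, but ran from no reads to 75.8 CPM per kb for Mfge8. Anpep (12.1 CPM per kb) and Lhfp (10.8 CPM per kb) also lay above Acta2, the highest member. So did Ndufa4l2 (5.65), Steap4 (3.79), Pde5a (3.2), Cd248 (2.19) and Ednrb (2.02 CPM per kb). Of the 30 genes 20 could be tested, and 6 fell and 1 rose. Cd248, encoding endosialin of pericytes and fibroblasts, was at 2.48, 2.73 and 4.18 CPM in Y-KO and 8.74, 8.03 and 8.0 CPM in Y-Scr (edgeR adjusted p = 0.00620), with no overlap. The small GTPase gene Rasl12 fell 3.89-fold (edgeR adjusted p = 0.00653). Vtn, encoding vitronectin, had no reads in Y-KO against 93 in the Y-Scr libraries. It passed the filter on low counts through the Y-Scr libraries alone, so its call is only a description. Taking 3 reads over the group as the floor, Vtn was 27.8-fold lower (edgeR adjusted p = 0.0173). That fold treats reads as separate fragments and the Y-Scr count as exact, so it is not a lower bound. Ndufa4l2, a mitochondrial protein gene also induced by low oxygen, rose 5.87-fold, with Y-KO replicate 3 at 20.6 CPM and the other 2 at 6.11 and 5.01 CPM, against 1.64 to 2.02 CPM in Y-Scr. Its log2 fold change was 2.55, and 1.63 without Y-KO replicate 3. The edgeR calls of Vtn and Ndufa4l2 were lost without any 1 Y-Scr library. That of Vtn was also lost with the replicate block (edgeR adjusted p = 0.0595), and Vtn was not tested with halved counts. The count of 6 was 10 without Y-KO replicate 3, 3 without Y-KO replicate 2, 2 without any 1 Y-Scr library, and 0 with close pairs summed. The count of 1 higher was 3 without Y-KO replicate 3 and 0 with close pairs summed.

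Some other genes of this mural list, named after their values were seen, were low. Kcnj8, a potassium channel subunit gene, was at 0, 0 and 0.363 CPM in Y-KO and 1.72, 0.987 and 1.46 CPM in Y-Scr (log2 fold change -3.51, SE 1.22, edgeR adjusted p = 0.0865). Kcnj8 was tested only because of its Y-Scr reads. Higd1b had no reads in Y-KO against 18 in the Y-Scr libraries, 5.37-fold lower by the same floor and with the same limits, and was not tested. Abcc9, the partner of Kcnj8 in the channel, had 20 reads over the 6 libraries and was not tested either. Its mean was higher in Y-KO (0.118 CPM against 0.0249 CPM in Y-Scr). The mural transcription factor genes Foxf2, Foxc2 and Tbx18 had no reads. Of the 20 tested genes of the list, 16 had a log2 fold change below 0, against 52.5% of all tested genes. The rest were Ndufa4l2, Anpep, Cox4i2 and Ednrb. Anpep was at 53.8, 53.1 and 57.7 CPM in Y-KO and 44.6, 43.5 and 47.9 CPM in Y-Scr (edgeR adjusted p = 0.0735). Log2 fold changes were 1.88 for Cox4i2 (edgeR adjusted p = 0.286) and 1.24 for Ednrb (edgeR adjusted p = 0.262). In both, Y-KO replicates 1 and 2 lay above all Y-Scr libraries and Y-KO replicate 3 below them. Cox4i2 was at 1.77, 0.812 and 0.0227 CPM in Y-KO and 0.187 to 0.292 CPM in Y-Scr. Ednrb was at 16.9, 17.9 and 1.5 CPM in Y-KO and 5.08 to 5.21 CPM in Y-Scr.

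**Figure D4:**
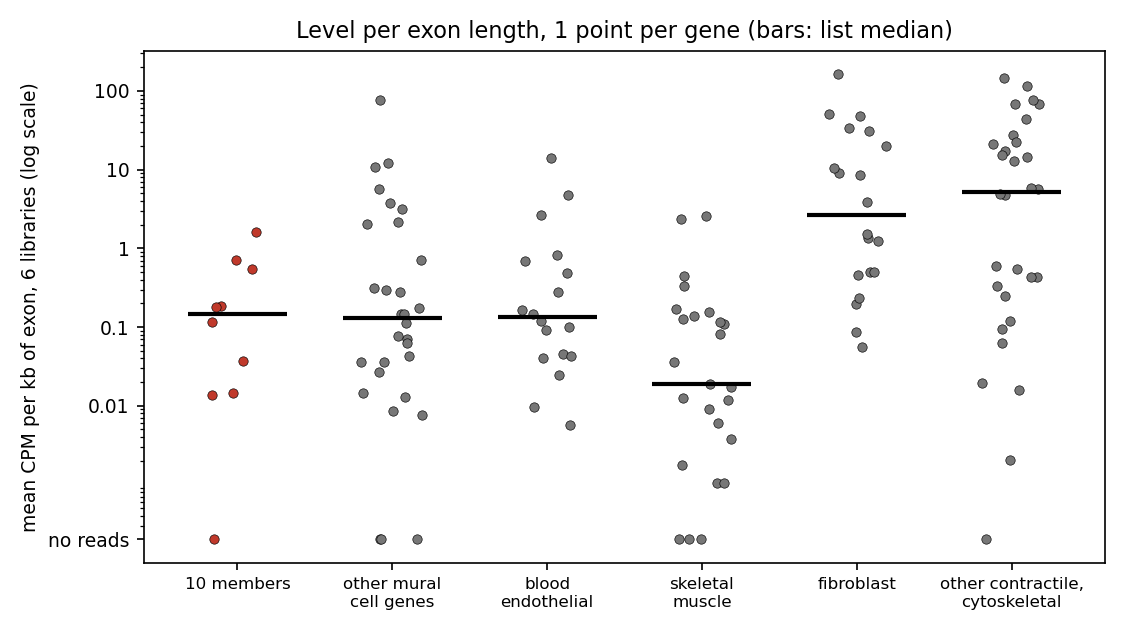
Mean CPM per kb of exon over the 6 libraries (log axis, genes without reads placed on the lowest tick), 1 point per gene, with list medians as bars. The medians of the 10 members (0.147), the other mural genes (0.130) and blood endothelial markers (0.133) lie below those of fibroblast markers (2.67) and other contractile and cytoskeletal genes (5.28).

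Genes of the contractile apparatus that many cells share were present at far higher levels. The 30 other contractile and cytoskeletal genes had a median of 5.28 CPM per kb, led by the light chain gene Myl6 at 147 and the filamin gene Flna at 114 CPM per kb, both named after their values were seen. Of 26 tested, 5 fell and 2 rose, with a median log2 fold change of -0.17. Cnn2, a calponin gene of non-muscle cells, was at 143, 142 and 146 CPM in Y-KO and 255, 224 and 232 CPM in Y-Scr (1.65-fold lower, edgeR adjusted p = 0.000887), and was well measured while its muscle relative Cnn1 had no reads. The tropomyosin gene Tpm2 rose 1.72-fold (edgeR adjusted p = 0.00268). Fhl1, a LIM domain gene of muscle, was at 0, 0.271 and 0.272 CPM in Y-KO and 2.45, 2.11 and 2.32 CPM in Y-Scr (edgeR adjusted p = 0.0195), and Synpo2, an actin-binding gene of smooth and skeletal muscle, fell 3.88-fold (edgeR adjusted p = 0.0149). Fhl1 lost its edgeR call without any 1 Y-Scr library and Synpo2 without Y-Scr replicate 1 or 3. Fhl1 would not have passed the filter on low counts on its Y-KO libraries alone, so its call is only a description. The count of 5 was 11 without Y-KO replicate 3, 3 without Y-KO replicate 1, 1 without Y-Scr replicate 1 or 3, 2 without Y-Scr replicate 2 or with close pairs summed, and 8 when scaled by total reads only. The count of 2 higher was 4 without Y-KO replicate 3, 1 without Y-KO replicate 1 or 2 or Y-Scr replicate 2 or 3, 1 with library size alone, without the filter or with the replicate block, and 0 with close pairs summed.

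Upstream of these genes, Srf itself averaged 61.8 ± 3.58 CPM over the Y-KO libraries and 60.3 ± 3.42 CPM over the Y-Scr libraries (SD, 3 each; log2 fold change 0.04, SE 0.09, edgeR adjusted p = 0.836). Its muscle partner gene Myocd had no reads in any library, as was the case for Gata6 and Tcf21. Of 10 tested genes of this group, 2 rose and none fell: Csrp2, a LIM domain partner of Srf, 1.85-fold (edgeR adjusted p = 0.00649), and Klf4, which represses contractile genes in smooth muscle, 1.5-fold (edgeR adjusted p = 0.0138). The Klf4 call was lost in edgeR without Y-KO replicate 1 or Y-Scr replicate 2 or 3, which brought the count of 2 to 1. With close pairs summed neither gene was called (edgeR adjusted p = 0.113 for Csrp2 and 0.175 for Klf4). Without Y-KO replicate 3, 1 gene of the group was called lower.

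Ligands of the PDGF receptors ran from no reads, for Pdgfd, to levels well above that of Pdgfrb. Pdgfb, encoding the ligand of Pdgfrb, was at 8.95, 10.5 and 10.8 CPM in Y-KO and 26.7, 23.2 and 28.3 CPM in Y-Scr, without overlap (2.59-fold lower, SE of the log2 fold change 0.14, edgeR adjusted p = 0.000551). Pdgfa, whose main receptor is the fibroblast gene product of Pdgfra, rose 1.46-fold (edgeR adjusted p = 0.00508), while Pdgfra averaged 13.4 ± 4.41 CPM over the Y-KO libraries and 11.7 ± 2.27 CPM over the Y-Scr libraries (SD, 3 each; edgeR adjusted p = 0.665). Plat, a protease that activates PDGF-C, fell 2.65-fold (edgeR adjusted p = 0.000875), and the co-receptor gene Nrp1 fell 1.75-fold (edgeR adjusted p = 0.00427). In all, 3 of 11 tested genes of this group fell and 2 rose. The count of 2 was 1 without Y-KO replicate 2 or any 1 Y-Scr library, and 0 with close pairs summed.

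Of 18 other Notch pathway genes tested, 4 fell and 1 rose. Hes1, a direct Notch target, was at 20.9, 20.7 and 22.5 CPM in Y-KO and 39.3, 36.0 and 37.3 CPM in Y-Scr (1.76-fold lower, edgeR adjusted p = 0.00142). Mfng, a glycosyltransferase gene acting on Notch receptors, fell 1.74-fold (edgeR adjusted p = 0.00164), and Dtx1, encoding a ubiquitin ligase of the pathway, 5.35-fold (edgeR adjusted p = 0.00264). The ligand gene Dll1 rose 1.41-fold (edgeR adjusted p = 0.0208), a call kept only without Y-KO replicate 1 or 3 among the fits that leave out 1 library. The count of 4 was 8 without Y-KO replicate 3, 2 with close pairs summed and 7 with library size alone as the scaling. Pdgfb, Mfng and Dtx1 are also expressed by leukocytes, which the CD45-negative sort should remove but whose Ptprc RNA was at 134 to 601 CPM. The summed pan-leukocyte markers were at 3200, 3260 and 1520 CPM in Y-KO and 4120, 3990 and 4060 CPM in Y-Scr, and their part in these differences was not tested.

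Other cells that could carry the listed genes were read in the same way. Of 20 fibroblast markers 6 fell and 1 rose, and their sum was 1440 and 1420 CPM in Y-KO replicates 1 and 2, 2200 CPM in Y-KO replicate 3, and 2250 to 2300 CPM in Y-Scr. In Y-KO replicate 3 the sum lay near Y-Scr, with Dcn at 423 CPM against 407 to 441 CPM, but the collagen gene Col1a1 was at 75.2 CPM against 204 to 223 CPM and Thy1 at 35.1 CPM against 149 to 163 CPM (genes picked here with their values known). The count of 6 was 12 without Y-KO replicate 3, 4 without any 1 Y-Scr library and 2 with close pairs summed. Of 13 tested blood endothelial markers none fell and 1 rose by the edgeR test, and in a fit without Y-KO replicate 3 the counts were 3 and 2. The gene that rose, Eng, lost its edgeR call without any 1 of the other 5 libraries, with the replicate block, with total reads as the scaling, without the filter and with close pairs summed. The summed endothelial markers were at 73.5, 74.2 and 71.6 CPM in Y-KO and 104, 96.5 and 102 CPM in Y-Scr, with no overlap. Much of each sum came from Pecam1 and Plvap, with means of 24.2 and 16.8 CPM in Y-KO and 34.5 and 39.4 CPM in Y-Scr. Among the tested markers the lower level was not general: 7 of 13 had a log2 fold change below 0, with a median of -0.1. The 5 that could not be tested, Tek, Robo4, Ptprb, Sox17 and Sox18, all had lower means in Y-KO. Of these, Sox18 had no reads in Y-KO against 74 in the Y-Scr libraries. Means of Kdr (3.59 against 1.45 CPM) and Cdh5 (4 against 2.88 CPM) were higher in Y-KO. Of 14 Schwann cell and melanocyte markers, which could accompany Mcam and Cspg4, 5 could be tested, none fell and 1 rose. Among 18 genes of TGF-beta signalling and myofibroblasts, 17 could be tested, 4 fell and 2 rose. The count of 4 was 1 without Y-KO replicate 1 or 2 or Y-Scr replicate 2 or 3, 2 without Y-Scr replicate 1, and 0 with close pairs summed, and that of 2 was 5 without Y-KO replicate 3. Of 12 macrophage markers 6 rose and 1 fell. The count of 6 was 11 without Y-KO replicate 3, and 1 with close pairs summed. Of 13 pan-leukocyte markers 5 fell and none rose. The count of 5 was 8 without Y-KO replicate 3, where 2 others were called higher, 1 without any 1 Y-Scr library, and 0 with close pairs summed. Of 9 tested epithelial markers 4 rose and 1 fell, with 2 and 0 when close pairs were summed and 3 called lower without Y-KO replicate 3. The part of these cells in the members' values was not tested.

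**Figure D5:**
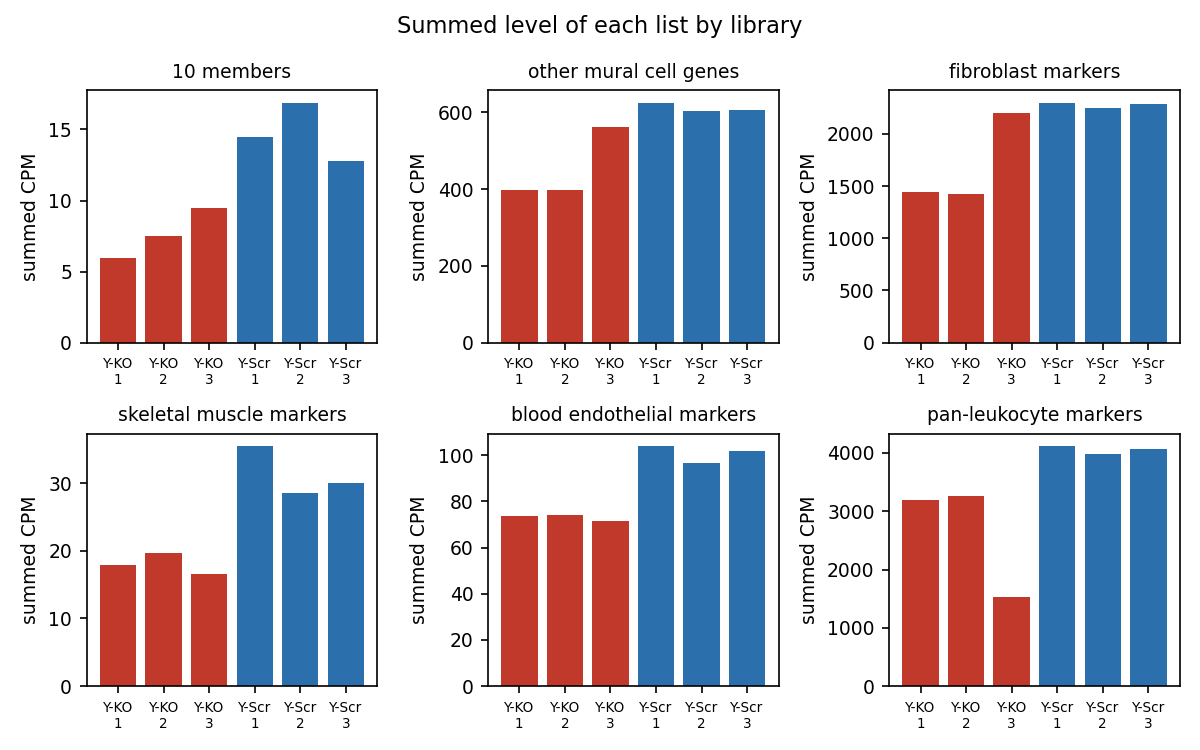
Summed CPM of each list in each library (bars from 0, Y-KO in red, Y-Scr in blue). The 10 members reach 5.98 to 9.47 CPM in Y-KO and 12.8 to 16.9 CPM in Y-Scr, and Y-KO replicate 3 stands apart from the other Y-KO libraries for fibroblast (2200 CPM) and pan-leukocyte markers (1520 CPM).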

How the data were processed

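Deposited was a table of unnormalised counts, with a column for every library. The authors made it with featureCounts 1.5.3 and Ensembl release 112 (GRCm39), per the file headers, with no other option, so by default strand was not used, single reads were counted, and reads fitting several genes or places were left out. Per the submitters' processing notes, FastQC 0.12.1, MultiQC 1.13, Trimmomatic 0.39 and STAR 2.5.2b were used. Libraries were poly-A selected, per the labels' protocols. Symbols came from an older annotation matched by gene ID (51880 of 57186 IDs).

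Groups followed the sample titles. edgeR 4.0.16 in R 4.3.3 (filterByExpr, minimum count 10 and minimum total 15, TMM, quasi-likelihood test, group alone) tested 17837 genes, with Benjamini-Hochberg adjustment over all of them. The SE is the log2 fold change divided by the square root of F. CPM per kb divides CPM by the exon length in the deposited table. Log2 CPM used a prior count of 2. Members are all named, and so are up to 4 genes with the smallest p per list. The members, the 14 lists and the tests were chosen with earlier results of these data known. Alternatives were a replicate block, DESeq2 1.42.0, limma-voom (limma 3.58.1), other scalings, no filter, leaving out each library and summing close pairs. Halved counts, and all alternatives for the lists, were added after seeing the data. The edgeR step was tested on simulated data. Plots were drawn with matplotlib 3.10.9.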

Additional observations from a re-analysis of the deposited data

How the results depend on the processing

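The count of pericyte and smooth muscle genes called lower in Y-KO was 0 as reported. It was 1 with limma-voom, with library size alone as the scaling, without a filter on low counts and with halved counts, the gene being Des each time. It ran from 0 to 2 when 1 library was left out, the 2 being Des and Rgs5 without Y-KO replicate 3. No member was called higher under any alternative run. The count of all genes called was 2871, ran from 1037 (without Y-Scr replicate 3) to 6393 (without Y-KO replicate 3), and was 496 with close pairs summed. With the replicate number as a block, 2066 genes and no member were called, and the edgeR adjusted p of Des was 0.0534. The numbers do not pair the libraries: deviations from the group means correlated by -0.008, 0.005 and -0.014 between libraries with the same number, and not every library correlated best with its own number. Every log2 fold change of the 6 tested members kept its sign except that of Pdgfrb, which was 0.17 without Y-Scr replicate 2. The cause of these changes was not tested. Low read numbers limit all 10 members, and shared exons also limit Tagln.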

Other observations

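The 6 tested members were averaged as standardised log2 CPM, which gave -1.03, -0.39 and -0.20 in Y-KO replicates 1 to 3 and 0.53, 1.10 and -0.01 in Y-Scr. Among 14006 named genes, the 5 with the most similar profile over the 6 libraries were Lrif1, Gin1, Mthfsl, Nusap1 and Slc39a5, with Pearson r from 0.986 to 0.992. These are descriptions over 6 libraries that share their groups, and 111 genes had an r over 0.9.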
